A study of Mus musculus with 18 samples.

Results

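Il7r, Il2rb, Il2rg, Id2, Tcf7, Tbx21, Eomes, Runx3 and Ltb encode receptor chains for common gamma chain cytokines, regulators of lymphocyte fate and a tumour necrosis factor family ligand. These 9 genes were taken by symbol from the 46983 genes of the deposited tables, and all 9 were found. Their RNA was measured in immune cells sorted from subcutaneous MC38 tumours, a mouse colon carcinoma line grown in 6-week-old C57BL/6 females. The mice were given anti-PD-1 (200 µg per mouse, 2 times per week) plus D18 (25 µg per mouse, 1 time per week), or anti-PD-1 alone at that dose, for 2 weeks. D18 is known here only by its code name. CD8+ T cells, T helper cells (labelled CD4+ T cells) and dendritic cells were each sorted and gave 3 libraries from the combined treatment (called D18 from here on) and 3 from anti-PD-1, 18 in all. Both arms carried the antibody and no untreated tumour was analysed here, so each comparison is of D18 on top of the antibody. Mice were pooled before they were divided into arms and the labels do not tie a replicate to a mouse, so p-values measure only the spread between these libraries, which may be technical.

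The common gamma chain, encoded by Il2rg, is the shared signalling subunit of the receptors for interleukins 2, 4, 7, 9, 15 and 21. It pairs with the interleukin 7 receptor alpha chain (Il7r) on resting and memory-type lymphocytes, and with the beta chain encoded by Il2rb to receive interleukin 2 or 15, after which Jak1 and Jak3 phosphorylate STAT5. In CD8+ T cells, Tcf7 (TCF-1) is known from memory and stem-like cells, while Tbx21 (T-bet), Eomes, Id2 and Runx3 act in effector and tissue-resident differentiation. Id2 is also required for parts of the dendritic cell lineage, and Runx3 acts in myeloid cells too. Ltb encodes lymphotoxin beta, a membrane ligand that lymphocytes use to signal to stromal and myeloid cells through the lymphotoxin beta receptor.

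Promoter sequence was at hand in RefSeq for 8 of the 9 genes, as windows of 300 bases around a listed start. The Il7r window and the Tcf7 window at chr11:52282546-52282845 lie inside the gene as annotated in GENCODE. Their last bases matched none of its transcripts, and whether they mark a start in use was not tested. Il7r and Il2rg are shown because they kept reads in libraries with almost no T cell RNA, and Tbx21 and Ltb because they nearly lost theirs there. All are written 5′ to 3′ on the gene's strand (build GRCm38.p6). Capitals mark the letters TGTGGT, the core bound by RUNX factors such as Runx3, or GGAAGT, an ETS core, each searched on both strands, so that ACCACA and ACTTCC count as matches. The windows are chr15:9529827-9530126 (minus strand) for Il7r, chrX:101268206-101268505 (minus strand) for Il2rg, chr11:97115282-97115581 (minus strand) for Tbx21 and chr17:35194257-35194556 (plus strand) for Ltb.
Il7r: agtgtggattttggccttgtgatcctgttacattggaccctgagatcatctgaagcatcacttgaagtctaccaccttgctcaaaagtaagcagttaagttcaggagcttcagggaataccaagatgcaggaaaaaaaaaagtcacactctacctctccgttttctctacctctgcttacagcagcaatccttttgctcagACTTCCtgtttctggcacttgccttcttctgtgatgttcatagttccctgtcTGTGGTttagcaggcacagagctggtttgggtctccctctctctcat
Il2rg: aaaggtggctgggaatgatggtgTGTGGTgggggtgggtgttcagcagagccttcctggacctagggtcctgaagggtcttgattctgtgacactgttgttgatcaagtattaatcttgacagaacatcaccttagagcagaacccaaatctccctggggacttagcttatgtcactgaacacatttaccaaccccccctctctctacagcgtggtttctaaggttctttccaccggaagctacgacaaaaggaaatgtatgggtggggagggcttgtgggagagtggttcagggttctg
Tbx21: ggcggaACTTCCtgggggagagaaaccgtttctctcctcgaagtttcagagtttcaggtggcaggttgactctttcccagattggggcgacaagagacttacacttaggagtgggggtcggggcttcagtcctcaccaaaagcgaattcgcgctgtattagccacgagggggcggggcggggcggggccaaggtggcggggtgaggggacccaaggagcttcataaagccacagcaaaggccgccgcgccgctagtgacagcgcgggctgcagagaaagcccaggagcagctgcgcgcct
Ltb: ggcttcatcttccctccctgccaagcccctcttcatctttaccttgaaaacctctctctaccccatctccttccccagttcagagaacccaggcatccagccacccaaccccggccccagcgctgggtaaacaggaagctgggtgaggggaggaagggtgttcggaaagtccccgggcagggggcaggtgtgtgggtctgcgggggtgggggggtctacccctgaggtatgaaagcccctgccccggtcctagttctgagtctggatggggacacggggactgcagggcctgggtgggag
No capitals overlap in these 4 windows. TGTGGT stood in the windows of Il7r, Il2rg and Runx3, which are 3 of 10 member windows, against 16.8% of all 32851 windows of that length. GGAAGT stood in those of Il7r, Tbx21 and Tcf7, also 3 of 10, against 23.8% of all. Those of Il7r and Tcf7 are the windows whose last bases matched no annotated transcript. CTTTGA, a TCF core, was in none of the 10 and in 16.0% of all, and GGTGTGA, a T-box core, was in none of the 10 and in 3.98% of all. These matches describe letters and say nothing of binding. The windows of genes with reads apart from T cell RNA held 1 CpG (Il7r), 3 (Il2rg), 21 (Id2) and 8 and 45 (Runx3, 2 windows). Those of the other genes held 7 (Ltb), 10 (Eomes), 21 (Tbx21) and 17 and 45 (Tcf7, 2 windows), so the counts overlapped, and the median over all windows was 7.

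The libraries held 11170 to 266392 recovered reads, and 3 reads, the limit that a count of 0 allows, are 11.3 CPM (reads per 1000000 reads of the library) in the deepest and 269 CPM in the shallowest. Reads carried no molecular identifiers, so such limits cover counting error only. Several libraries went against their labels. Reads of Cd3e, which T cells need to assemble their antigen receptor, numbered at most 1 in replicates 1 and 2 of dendritic cells in both arms and of anti-PD-1 in the CD4+ T cell sort. These are 6 libraries in all, and the other 12 had 10 to 209 reads. So few Cd3e reads go against the label in the CD4+ T cell sort only. Both dendritic cell libraries numbered 3 held T cell RNA (5145 CPM of a list of 17 T cell genes with D18 and 2620 CPM with anti-PD-1). CD4+ T cell D18 replicate 3 had 173 reads of the CD8 coreceptor genes and 2 of Cd4. Anti-PD-1 replicate 3, the only anti-PD-1 library of that sort with T cell RNA, had 38 and 20. Dendritic cell genes were sparse in the dendritic cell sort, where a list of 15 took 360 to 546 CPM with D18 and 220 to 420 CPM with anti-PD-1, while macrophage genes took 13966 to 51127 CPM. Anti-PD-1 replicates 1 and 2 of every sort also had 0 reads of the mitochondrial genes mt-Atp6, mt-Co2 and mt-Co3, and the other 12 libraries had some. They are called a batch here although no label names one, and a fit with this batch as a term rests on 1 anti-PD-1 library per sort.

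Across the 18 libraries the 9 genes fell into those with few or no reads where T cell RNA was nearly absent and those with reads there. Il2rb, the beta chain for interleukins 2 and 15, had 0 reads in all 6 libraries with at most 1 Cd3e read and 17 to 309 reads in each of the other 12, where its pooled level of 603 CPM was at least 157-fold higher than the floor of 3 reads over those 6. Tcf7 had 0 reads in the 6 and 110 in the 12, a pooled level at least 19.1-fold above the same floor. Eomes had 0 against 32, at least 5.55-fold above it. Tbx21 had 2 reads, both in dendritic cell D18 replicate 1, against 102. Ltb had 8 reads in the 6 libraries against 657 in the 12, so that its pooled level in the 6, 10.3 CPM (95% exact binomial interval 4.43 to 20.2), was 2.34% of that in the 12. A count of 0 in all 6 was found for 1.13% of the 2827 genes with a mean of at least 50 CPM in the 12, so few genes of that level share it. Eomes was lower (pooled 21.4 CPM in the 12) and is not among those genes. Low reads of T cell genes are built into a split by Cd3e. The split of the libraries was made after their Cd3e reads were seen and is given as a description, with no test.

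The other 4 genes had reads without T cell RNA. Il2rg, the common gamma chain itself, had 76 reads in the 6 libraries, a pooled level of 97.5 CPM (76.8 to 122) or 33.6% of that in the 12. Id2 had 228 reads there and was the only one of the 9 with reads in all 18 libraries. Its pooled level in the 6 was 20.4% of that in the 12. Runx3 had 31 reads there (41.7%). Il7r had 98 reads there (61.4%), of which 82 came from dendritic cell D18 replicate 1, at 430 CPM the highest Il7r level of all 18. That library also had the highest summed level of a list of 9 B cell genes, 1233 CPM, against 22.5 to 685 CPM in the other 17, with 58 reads of Cd79b and 52 reads of Itgax, a gene of dendritic cells and macrophages. Their part in the Il7r level was not tested. The 5 other libraries held 0 to 5 reads of Il7r.

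**Figure D1:**
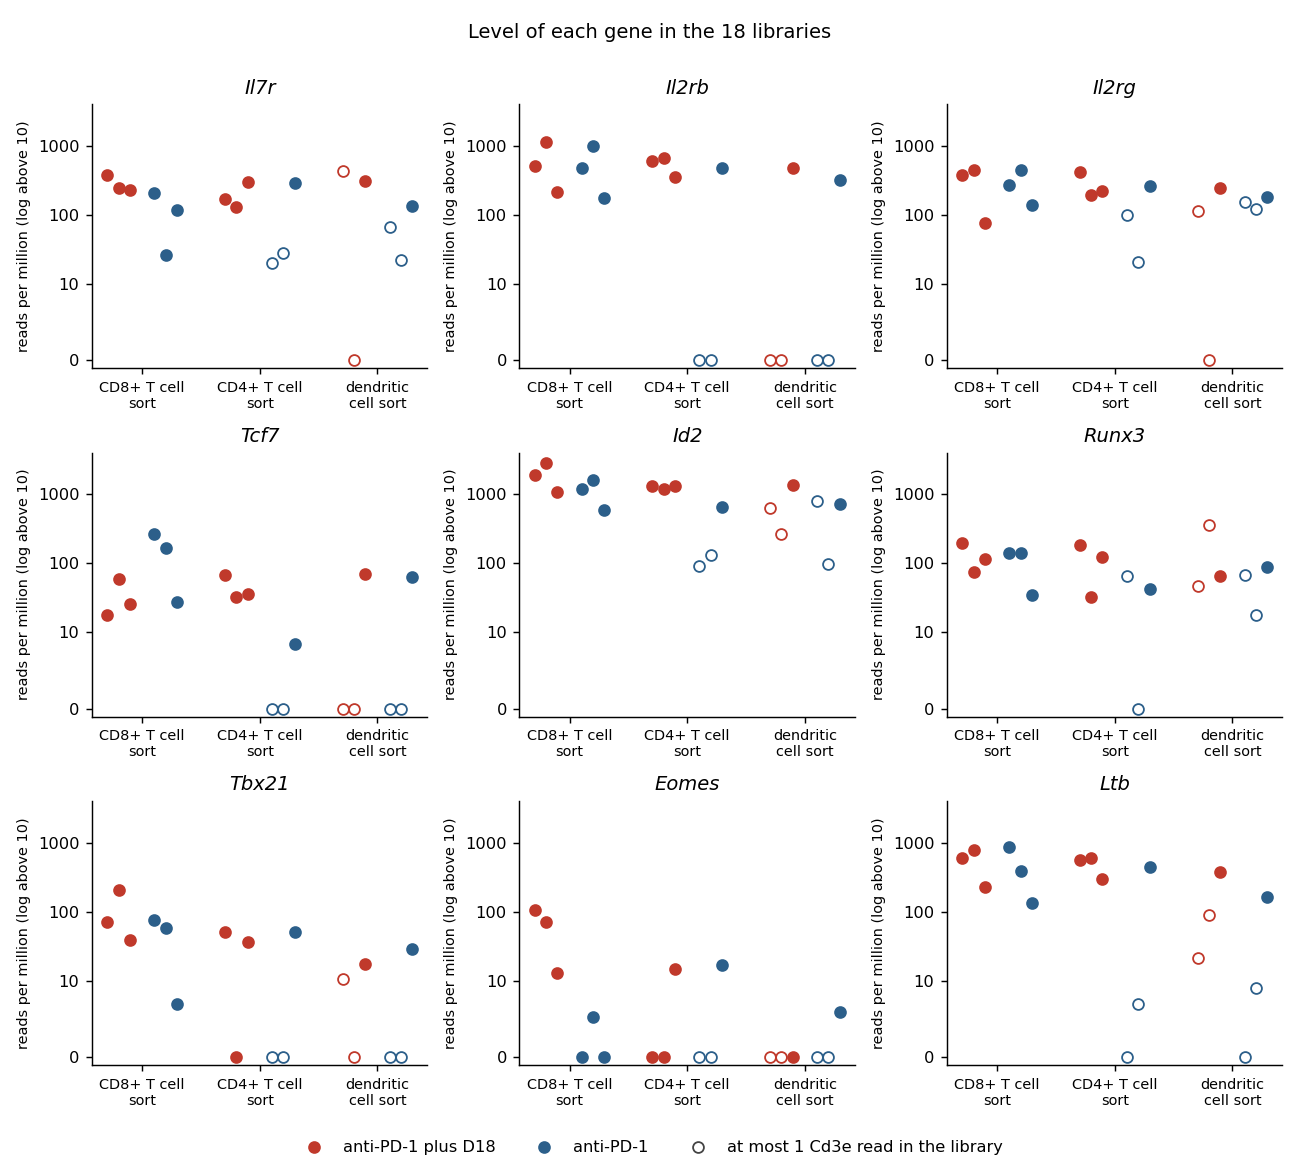
Level of each of the 9 genes in every library, in CPM on an axis that is linear below 10 and logarithmic above, with anti-PD-1 plus D18 (red) left of anti-PD-1 (blue) in each sort. Open symbols are the 6 libraries with at most 1 Cd3e read, where Il2rb, Tcf7 and Eomes lie at 0 and Id2 lies at 92.3 to 807.

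Levels per length, in CPM per kilobase of exon, set the order of the genes within a sort. In the CD8+ T cell sort Id2 was highest, with a median of 576 and a range of 240 to 1153 over the 6 libraries. Ltb followed at 330 (87.4 to 565), then Il2rg at 135 (32.2 to 186) and Il2rb at 116 (40.6 to 271). These 4 overlapped with their neighbours in the order, and Il2rg and Il2rb stood close together. Il7r came next at 46.7 (5.65 to 80.7), Tbx21 at 26.1 (2.80 to 83.0), Runx3 at 25.6 (6.97 to 39.4) and Tcf7 at 16.8 (6.82 to 102), with ranges that overlapped throughout. Eomes was lowest at 2.18 (0 to 25.9). The CD4+ T cell sort had Id2 at the top too, at a median of 377 (37.9 to 538) CPM per kilobase, followed by Ltb at 246 (0 to 402), Il2rb at 96.6 (0 to 157) and Il2rg at 87.6 (8.71 to 176). In the dendritic cell sort the order was Id2 at 280 (40.6 to 555), Il2rg at 57.1 (0 to 101) and Ltb at 36.4 (0 to 245), and the medians of Il2rb, Tcf7 and Eomes were 0. The 3 tables were normalised separately and the sorts were not tested against each other.

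Over the 12 libraries with T cell RNA, Il2rb and Ltb spread least in their ratio to the T cell list among the 7 genes with reads in all 12. Il2rb had 5.98 to 12.1 reads per 100 reads of that list, a spread of 2.02-fold, while its CPM spread 6.66-fold. Ltb had 4.18 to 10.8 reads per 100, a spread of 2.59-fold against 6.47-fold in CPM. The ratio of Id2 ran from 10.1 to 31.9 (3.15-fold) and that of Il2rg from 2.16 to 6.92 (3.21-fold). Il7r and Tcf7 varied most in this ratio among the genes with reads in all 12 libraries, 25.9-fold each, from 0.28 to 7.31 reads per 100 for Il7r and from 0.13 to 3.40 for Tcf7. Their lowest ratios, in CD8+ T cell anti-PD-1 replicate 2 and in CD4+ T cell anti-PD-1 replicate 3, came from 5 and 1 reads.

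**Figure D2:**
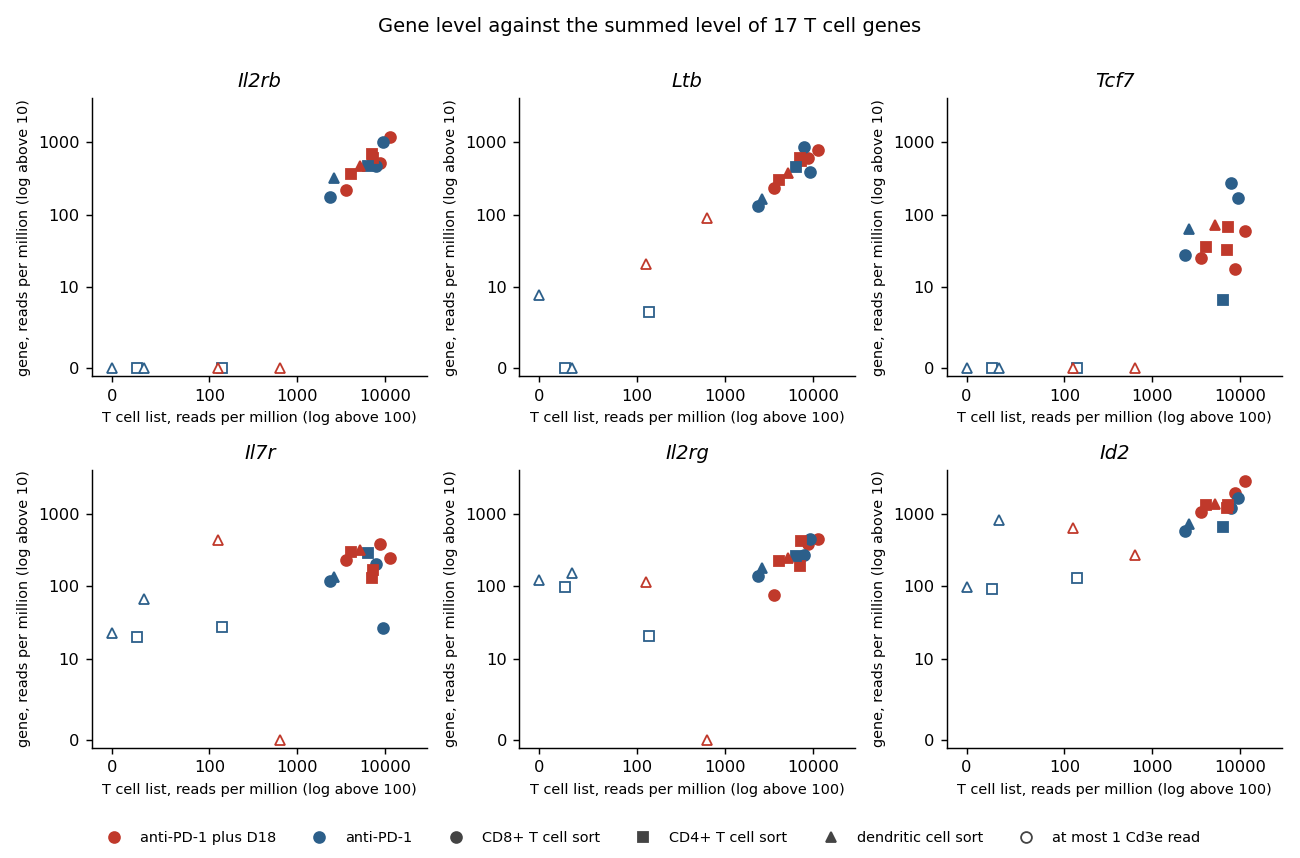
Level of 6 of the genes against the summed level of 17 T cell genes, in CPM, each axis linear near 0 and logarithmic above, with 1 symbol per library. Il2rb, Ltb and Tcf7 lie at or near 0 where T cell genes do, while Il7r, Il2rg and Id2 have reads there.

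The genes most alike in level over the 18 libraries, by Pearson's r of log2(CPM + 10) among 2524 genes, differed in kind between these groups. For Il2rb they were Lat (r = 0.99, Spearman's rho = 0.97), Gimap4 (r = 0.99) and Cd3e (r = 0.99), and for Ltb they were Lck (r = 0.97, rho = 0.95), Zap70 (r = 0.95) and Cd3d (r = 0.94), all known from T cells. Tcf7 was nearest to Sh2d2a (r = 0.89) and Cd96 (r = 0.89). Tbx21 was nearest to Nedd9 (r = 0.90) and Rgs16 (r = 0.89), then to Klrc1, an inhibitory receptor of natural killer and CD8+ T cells (r = 0.87). Il2rg went with Eif3c (r = 0.94), Psme1 (r = 0.94) and Mbnl1 (r = 0.93), Id2 with Rwdd1 (r = 0.94), Arhgef1 (r = 0.94) and Sept6 (r = 0.93), Il7r with Gm11478 (r = 0.90), Son (r = 0.88) and Atp5l (r = 0.86), and Runx3 with Ier2 (r = 0.85), Gnai2 (r = 0.84) and Lrrk1 (r = 0.82). With the 2 libraries furthest from a member's median level left out, r with its 3 genes was 0.76 to 0.79 for Il2rg and 0.72 to 0.75 for Runx3. It was 0.82 to 0.99 for the others. The groups were not apart in their r with the summed T cell list over the 18 libraries. It was 0.96 for Ltb, 0.93 for Il2rb, 0.83 for Id2, 0.78 for Tcf7 and 0.75 for Tbx21. For Il7r it was 0.53, for Il2rg 0.51 (rho = 0.85) and for Runx3 0.45. With the 2 furthest libraries left out it was 0.96 for Il2rb, 0.94 for Ltb, 0.82 for Tcf7 and 0.73 for Tbx21. It was then 0.67 for both Id2 and Il2rg, 0.53 for Runx3 and 0.51 for Il7r. Eomes had reads in fewer than 9 libraries and was left out. The libraries share sorts, arms and depth, so these values describe the 18 libraries, with no test.

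In the CD8+ T cell sort, 7 of the 9 genes had a mean of at least 10 normalised reads (reads divided by a size factor) and were tested. None of them passed an adjusted p of 0.05 (limma), a threshold that 0% of all 1569 genes tested passed. An unadjusted p under 0.05 was found for 0 of the 7 and for 130 of all, and with limma-voom, run on whole reads computed back out of the deposited log2 values, 0 genes passed. With the replicate number as a block, 20 of the 1569 genes passed (1.27%) and 316 had an unadjusted p under 0.05. That block rests on deviations of these same libraries and on no label that gives pairing. Of the 7 members 0 passed under the block and 2, Il7r and Id2, had an unadjusted p under 0.05. Of the 7, 5 had a positive and 2 a negative log2 change with D18, with a median of 0.30, against −0.03 over all genes tested. In bulk libraries, fewer cells of a type and less RNA per cell cannot be told apart. Beside these changes, 17 of 19 tested genes of a macrophage list had a negative log2 change with D18 (median −2.18), and the list summed to 6091 to 26400 CPM with D18 and 25576 to 40888 CPM with anti-PD-1. Of the T cell list 13 of 16 had a positive change (median 0.40), and it summed to 3564 to 11299 CPM with D18 and 2363 to 9330 CPM with anti-PD-1. The part of either in the changes below was not tested.

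Among the receptors, Il7r had 39.3, 22.2 and 30.3 normalised reads in the D18 libraries, against 21.6, 2.78 and 16.3 in the anti-PD-1 libraries. Every D18 library lay above every anti-PD-1 library, the nearest pair by under 1 normalised read, in a sort where 6.88% of all genes tested had that order and 7.65% the opposite one. The means were 30.6 ± 8.5 with D18 and 13.6 ± 9.7 with anti-PD-1 (SD, n = 3 each), a log2 change of 1.44 ± 0.67 (SE) on the log2(normalised reads + 1) scale, with an adjusted p of 0.617 by limma. With the replicate number as a block the unadjusted p was 0.0088 and the adjusted p 0.144. With the batch as a term, which sets D18 against anti-PD-1 replicate 3 alone, the change was 0.83 ± 0.98. That library had the least T cell RNA of the sort (2363 CPM of the T cell list). Per 100 reads of the T cell list Il7r had 4.33, 2.16 and 6.47 reads with D18, against 2.59, 0.28 and 5.01 with anti-PD-1, so the groups overlapped on that scale. Leaving out 1 library at a time gave 0.64 (without anti-PD-1 replicate 2, where Il7r had 5 reads) to 1.93.

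Il2rb and Il2rg gave no such order. Il2rb had 54.2, 105.7 and 28.6 normalised reads with D18, against 49.9, 106.0 and 24.0 with anti-PD-1. The groups overlapped nearly library by library, with a log2 change of 0.12 ± 0.67 (adjusted p = 0.963, limma). Il2rg had 39.3, 40.4 and 10.1 with D18, against 28.3, 46.6 and 19.2 with anti-PD-1, a change of −0.20 ± 0.60 (adjusted p = 0.923). With the batch as a term, against anti-PD-1 replicate 3 alone, the change was 1.16 ± 0.86 for Il2rb. For Il2rg it was 0.39 ± 0.86, opposite in sign to the value over all 6 libraries. The libraries numbered 3, which had the least T cell RNA of this sort, were the lowest of both arms for both chains.

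Among the regulators, Id2, an inhibitor of E proteins, had 201.9, 256.3 and 139.8 normalised reads with D18, against 124.0, 172.1 and 80.7 with anti-PD-1. D18 was the higher of each pair of libraries with the same number, but the groups overlapped. The means were 199 ± 58 with D18 and 126 ± 46 with anti-PD-1 (SD, n = 3 each), a log2 change of 0.69 ± 0.47 (adjusted p = 0.680, limma), with an unadjusted p of 0.0207 and an adjusted p of 0.191 under the replicate block. With the batch as a term, against anti-PD-1 replicate 3 alone, the change was 1.25 ± 0.66. Runx3, which holds CD8 lineage identity, had 20.6, 6.84 and 15.2 with D18, against 14.8, 15.0 and 4.80 with anti-PD-1. Its groups overlapped (0.30 ± 0.61, adjusted p = 0.881).

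Tcf7, the gene of TCF-1, pointed the other way. It had 1.87, 5.47 and 3.37 normalised reads with D18, against 28.3, 17.8 and 3.84 with anti-PD-1. D18 replicate 2 lay above anti-PD-1 replicate 3, so the groups overlapped, and the log2 change of −1.68 ± 1.10 did not pass (adjusted p = 0.674, limma). Tcf7 was tested only through anti-PD-1, with a mean of 16.6 normalised reads there and 3.57 with D18. Set against the T cell reads of the same library, Tcf7 had 0.21, 0.53 and 0.72 reads per 100 reads of the T cell list with D18, against 3.40, 1.81 and 1.18 with anti-PD-1, so that the groups did not overlap on this scale. On it 6.31% of the genes tested lay lower in every D18 library and 1.72% higher. The D18 values rest on 1, 16 and 2 reads, and those of anti-PD-1 on 21, 32 and 4. With the batch as a term, against anti-PD-1 replicate 3 alone, the normalised change was −0.16 ± 1.51. Without that term and with 1 library left out it lay between −2.44 and −1.14.

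Tbx21 and Eomes, the paired T-box factors of cytotoxic lymphocytes, had too few reads to be tested. Eomes had 6, 19 and 1 reads with D18, against 0, 1 and 0 with anti-PD-1, which is 11.2, 6.50 and 1.68 normalised reads with D18 and 0, 0.56 and 0 with anti-PD-1. After normalisation every D18 library lay above every anti-PD-1 library, but D18 replicate 3 and anti-PD-1 replicate 2 held 1 read each, so this order rests there on their size factors. The share of genes with that order, 6.88% in this sort, covers only the genes tested, and Eomes is not among them. Pooled, 26 reads with D18 and 1 with anti-PD-1 gave a CPM ratio of 26.7, with a 95% exact interval of 4.39 to 1096 that covers counting error only. Without D18 replicate 2, which held 19 of the reads, 7 reads against 1 gave 21.5 (2.76 to 970). With no filter on low values the log2 change was 2.44 ± 0.92, with an unadjusted p of 0.0079 and an adjusted p of 0.610 (limma).

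Tbx21 had 4, 55 and 3 reads with D18, against 6, 11 and 1 with anti-PD-1, or 7.48, 18.8 and 5.05 normalised reads with D18 and 8.09, 6.11 and 0.96 with anti-PD-1. The groups overlapped. The pooled CPM ratio of 3.54 (2.07 to 6.36) rested on D18 replicate 2, and without it 7 reads against 18 gave 1.20 (0.42 to 3.0). Natural killer cells express both factors too. A list of 7 of their genes had 27, 160 and 22 reads with D18, against 21, 96 and 20 with anti-PD-1. Most of these came from Klrk1 (21, 129 and 18 reads with D18, 14, 67 and 14 with anti-PD-1), which CD8+ T cells also express. Klre1, a receptor gene known from natural killer cells, had 6, 31 and 3 reads with D18, against 6, 29 and 6 with anti-PD-1. Klrb1c had 1 read in 1 library of each arm, and Ncr1, Klra4, Klra8 and Klra9 had 0 reads in this sort. The part of these cells in the Eomes and Tbx21 levels was not tested.

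Ltb, the ligand, had 63.6, 71.2 and 30.3 normalised reads with D18, against 90.3, 41.1 and 18.3 with anti-PD-1. The groups overlapped and the log2 change was 0.33 ± 0.63 (adjusted p = 0.880, limma). With the batch as a term, against anti-PD-1 replicate 3 alone, it was 1.45 ± 0.77.

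**Figure D3:**
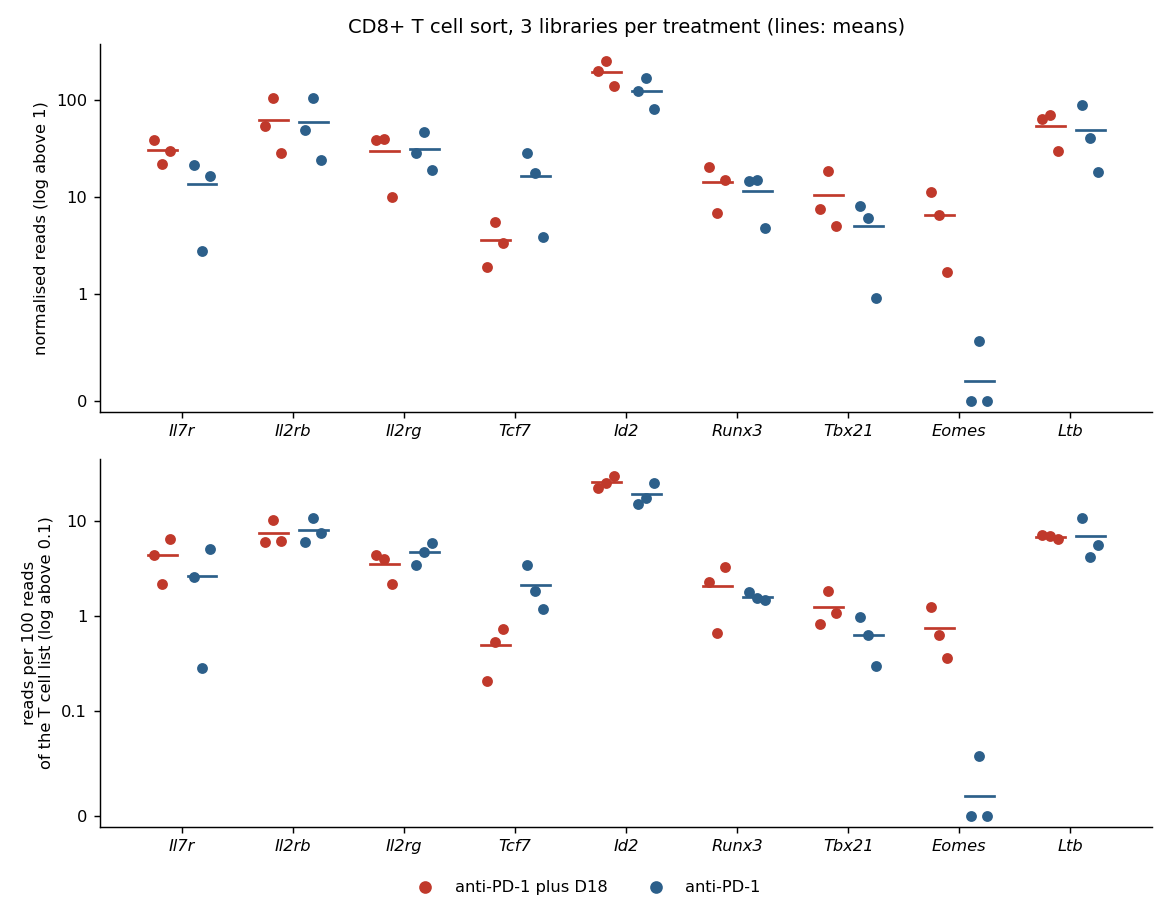
Values of the 9 genes in the CD8+ T cell sort, with anti-PD-1 plus D18 (red) left of anti-PD-1 (blue), 1 point per library and a line at the mean of 3, as normalised reads (top) and as reads per 100 reads of the T cell list (bottom), on axes that are linear near 0 and logarithmic above. Il7r and Eomes do not overlap in the top panel, and Tcf7 and Eomes do not overlap in the bottom one. Of the 1569 genes tested, 6.88% lay higher in every D18 library and 7.65% lower on the top scale. On the bottom scale these shares were 1.72% and 6.31%. Eomes was not among the genes tested.

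Genes around these receptors were read from lists of the pathway. The cytokines themselves had few or no reads. Il7, Il9 and Il21 had 0 in all 18 libraries and Il2 and Il4 at most 1 in any library. Il15 had 2, 4 and 0 reads in the dendritic cell sort with D18, against 2, 0 and 1 with anti-PD-1, where the 4 reads came from the library of 11170 reads, in which 3 reads are already 269 CPM. None of the cytokines was tested. Of 20 other genes of the pathway, 7 were tested in the CD8+ T cell sort, 5 positive and 2 negative, with a median of 0.15, and none passed. Cish, an inhibitor that STAT5 induces after interleukin 2 or 15, had 29.9, 23.3 and 21.9 normalised reads with D18, against 12.1, 9.44 and 5.77 with anti-PD-1. The groups did not overlap (1.40 ± 0.43, unadjusted p = 0.0100, adjusted p = 0.534, limma), and Cish passed the filter on low values through D18, since its mean was 25.02 with D18 and 9.11 with anti-PD-1. Il4ra, the interleukin 4 receptor alpha chain, which macrophages also express, had 5.61, 2.05 and 5.05 with D18, against 14.8, 19.4 and 23.1 with anti-PD-1. Every D18 library lay below every anti-PD-1 library (−2.0 ± 0.64, unadjusted p = 0.0127, adjusted p = 0.534), and it passed the filter only through anti-PD-1 (mean 4.24 with D18 and 19.1 with anti-PD-1). Jak1, the kinase bound to the Il7r and Il2rb chains, had 56.1, 42.4 and 47.2 with D18, against 39.1, 31.6 and 20.2 with anti-PD-1, again with no overlap (0.70 ± 0.41, adjusted p = 0.671). Of all genes tested in this sort, 6.88% lay higher in every D18 library and 7.65% lower. The genes named here were picked from their list by the smallest unadjusted p. Mcl1, a survival factor, was at 0.18 ± 0.50.

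Other lymphocyte regulators and genes of the lymphotoxin pathway were sparse. Of 29 regulators 4 were tested, 2 positive and 2 negative with a median of −0.20, and none passed. Tox, known from exhausted T cells, had 0, 25 and 1 reads with D18, against 6, 82 and 5 with anti-PD-1 (−2.19 ± 1.61, adjusted p = 0.702, limma), with groups that overlapped after normalisation. Ets1 (−0.47), Satb1 (0.28) and Bhlhe40 (0.065) lay within 1 SE of 0. Of 13 genes of the lymphotoxin pathway 2 were tested. Tnf, a cytokine of the same family as Ltb, had 59.8, 13.3 and 28.6 normalised reads with D18, against 2.70, 12.8 and 10.6 with anti-PD-1. Its groups did not overlap, although D18 replicate 2 and anti-PD-1 replicate 2 lay within 1 normalised read of each other (1.82 ± 0.69, unadjusted p = 0.027, adjusted p = 0.564). That order, with D18 above, was found for 6.88% of all genes tested in this sort. Tnfrsf1b, a receptor of that cytokine, was at −1.08 ± 0.64. Tnf passed the filter through D18 (mean 33.9 with D18 and 8.68 with anti-PD-1), and Tox (3.41 with D18 and 19.5 with anti-PD-1) and Tnfrsf1b (6.98 with D18 and 17.99 with anti-PD-1) through anti-PD-1. Ltbr, the receptor of lymphotoxin beta, had at most 10 reads in any library and was not tested.

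In the CD4+ T cell sort 5 of the 9 genes were tested and all 5 had a positive log2 change, with a median of 2.0, against 0.03 over the 966 genes tested. None passed an adjusted p of 0.05 (limma), which 0% of the genes tested did, and limma-voom called 0 as well. An unadjusted p under 0.05 was found for 3 of the 5, Il2rb, Ltb and Id2, and for 100 of all. This sort holds the pair of anti-PD-1 libraries with 0 and 1 Cd3e reads. The T cell list had a positive change in 12 of 12 tested genes (median 2.68) and summed to 4086 to 7243 CPM with D18 and to 26.4, 139 and 6410 CPM with anti-PD-1. Il7r passed the filter on low values through D18, with a mean of 15.1 normalised reads there and 9.6 with anti-PD-1. Tcf7, Runx3, Tbx21 and Eomes did not pass it.

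Il2rb had 50.8, 39.4 and 28.3 normalised reads with D18, against 0, 0 and 36.4 with anti-PD-1. Ltb had 46.6, 35.6 and 23.7 with D18, against 0, 1.16 and 34.4 with anti-PD-1. For both genes the first 2 anti-PD-1 libraries were at or near 0 and the third lay inside the D18 range. The log2 changes were 3.56 ± 1.32 for Il2rb (unadjusted p = 0.0262, adjusted p = 0.453, limma) and 3.05 ± 1.20 for Ltb (0.0336 and 0.453). With no filter on low values both passed (adjusted p = 0.0037 for Il2rb and 0.0251 for Ltb), and so they did without anti-PD-1 replicate 3 (5.30, adjusted p = 0.0202, and 4.58, adjusted p = 0.0259), which leaves the pair without T cell RNA as the only anti-PD-1 libraries. Without that pair, an alternative chosen after seeing the data, the changes were 0.08 for Il2rb and −0.02 for Ltb, and the fit with the batch as a term, which sets the same libraries apart, gave the same values. Per 100 reads of the T cell list, Il2rb had 8.35, 9.50 and 8.73 reads with D18, against 7.36 in anti-PD-1 replicate 3, and Ltb 7.66, 8.60 and 7.31 with D18, against 6.97.

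Id2 was the one tested member whose groups did not overlap in the CD4+ T cell sort. It had 110.1, 69.4 and 103.3 normalised reads with D18, against 9.78, 22.0 and 50.02 with anti-PD-1. Every D18 library lay above every anti-PD-1 library, including replicate 3, which had T cell RNA. In this sort 5.28% of the genes tested had that order and 9.21% the opposite one. The means were 94.3 ± 21.8 with D18 and 27.3 ± 20.6 with anti-PD-1 (SD, n = 3 each), a log2 change of 2.0 ± 0.63 (unadjusted p = 0.0099, adjusted p = 0.453, limma). Without the pair of libraries that lacked T cell RNA it was 0.87, and with the batch as a term it was 0.87 ± 0.77. Per 100 reads of the T cell list Id2 had 18.1, 16.7 and 31.9 reads with D18, against 10.1 in anti-PD-1 replicate 3.

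Il7r and Il2rg overlapped between the arms of that sort. Il7r had 14.1, 7.50 and 23.7 normalised reads with D18, against 2.10, 4.62 and 22.1 with anti-PD-1 (0.99 ± 0.88, adjusted p = 0.694, limma). Il2rg had 35.3, 11.3 and 17.9 with D18, against 10.5, 3.47 and 20.1 with anti-PD-1 (0.98 ± 0.68, adjusted p = 0.610). Without the pair that lacked T cell RNA the changes were −0.65 for Il7r and −0.06 for Il2rg. The untested regulators were low. Tcf7 had 4, 1 and 5 reads with D18, against 0, 0 and 1 with anti-PD-1, Runx3 11, 1 and 17 against 10, 0 and 5, Tbx21 3, 0 and 5 against 0, 0 and 6, and Eomes 0, 0 and 2 against 0, 0 and 2. Of the pathway genes 3 of 20 were tested (Jak1 1.10 ± 0.54, Cish 1.83 ± 1.28, Mcl1 −0.60 ± 0.47), of the regulators 2 of 29 and of the lymphotoxin pathway none, and no gene of these lists passed. Cish passed the filter through D18 here too (mean 14.3 with D18 and 6.68 with anti-PD-1). The pair that lacked T cell RNA held 1 read of Cish each, against 28 in anti-PD-1 replicate 3.

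**Figure D4:**
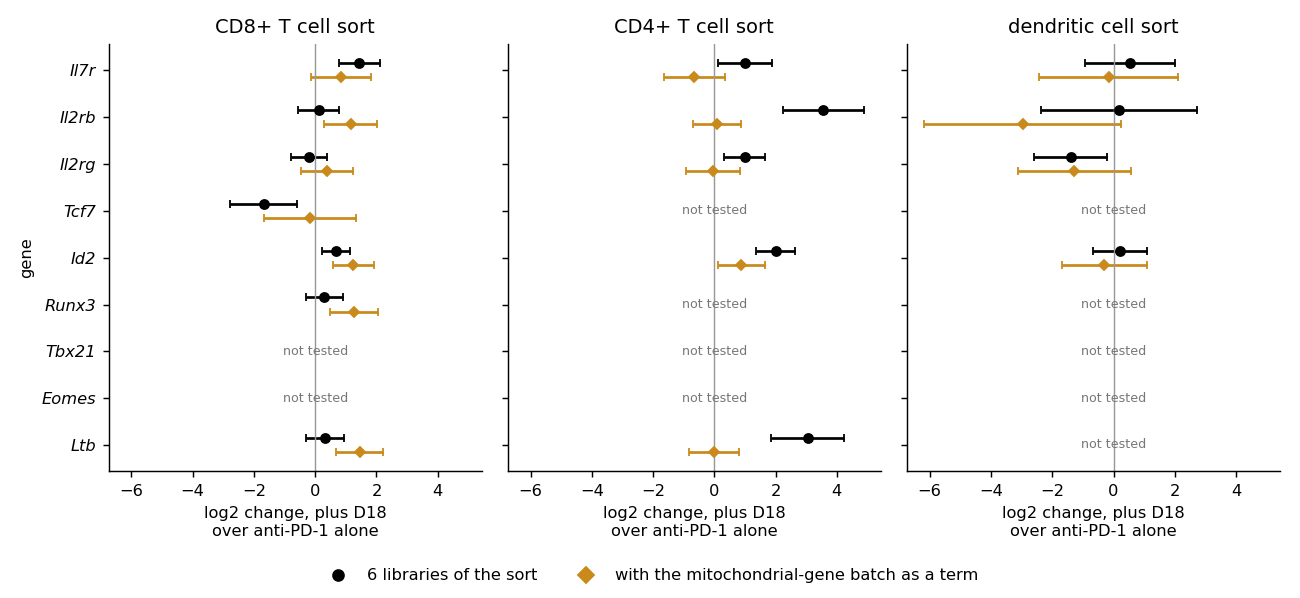
Log2 change with D18 over anti-PD-1 (points, with bars of 1 SE) of each tested gene in the 3 sorts, over the 6 libraries of a sort (black) and with the batch read from mitochondrial genes as a term (orange). In the CD4+ T cell sort Il2rb and Ltb stand at 3.56 and 3.05 over 6 libraries and at 0.08 and −0.02 with the term.

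In the dendritic cell sort 4 of the 9 genes were tested, 3 positive and 1 negative, with a median of 0.20, against −0.65 over the 886 genes tested. None passed an adjusted p of 0.05 (limma), which 0% of the genes tested did. An unadjusted p under 0.05 was found for 0 of the 4 and for 61 of all, and limma-voom called 92 of all genes but none of the 4. None of the 4 had groups that did not overlap, an order that 4.18% of the genes tested had with D18 above and 19.9% with D18 below. Il2rb passed the filter only through the libraries numbered 3, with 0, 0 and 38.2 normalised reads with D18, against 0, 0 and 25.6 with anti-PD-1. Per 100 reads of the T cell list these were 9.18 reads with D18, inside the range of the CD8+ and CD4+ T cell sorts, 5.98 to 10.8. With anti-PD-1 they were 12.1, above that range.

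Id2, required for part of the dendritic cell lineage, had 66.2, 14.4 and 109.5 normalised reads with D18, against 50.8, 23.2 and 58.7 with anti-PD-1. The groups overlapped (0.20 ± 0.89, adjusted p = 0.921, limma). Il2rg had 11.9, 0 and 19.6 with D18, against 9.53, 28.5 and 14.7 with anti-PD-1 (−1.40 ± 1.19, adjusted p = 0.604). The 0 of D18 replicate 2 comes from a library of 11170 reads, and without it the change was −0.05. Il7r had 44.5, 0 and 25.3 with D18, against 4.24, 5.28 and 10.9 with anti-PD-1. D18 replicates 1 and 3 lay above the other 4 libraries, and the log2 change was 0.54 ± 1.46 (adjusted p = 0.878). Il7r passed the filter through D18 here too, with a mean of 23.3 with D18 and 6.80 with anti-PD-1. It was 2.24 without D18 replicate 2 and −0.51 without D18 replicate 1. Ltb had 4, 1 and 63 reads with D18, against 0, 2 and 28 with anti-PD-1, Runx3 9, 4 and 11 against 4, 4 and 15, Tcf7 0, 0 and 12 against 0, 0 and 11, Tbx21 2, 0 and 3 against 0, 0 and 5, and Eomes 0, 0 and 0 against 0, 0 and 1. Irf8, a regulator of dendritic cells and macrophages, was the tested gene of 7 dendritic cell regulators, at 0.42 ± 0.83.

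The changes with D18 were also set against each other between sorts, in 1 model over all 18 libraries. Members were tested 13 times over the 3 pairs of sorts, and none passed, nor did any of the 916, 816 and 744 genes tested (0% in each pair, limma). The greatest differences were those of Il2rb, −3.44 ± 2.19 between the CD8+ and CD4+ T cell sorts (unadjusted p = 0.134) and 3.37 ± 2.21 between the CD4+ T cell and dendritic cell sorts (unadjusted p = 0.146). The smallest unadjusted p among the 13 was 0.0921, for Id2 between the CD4+ T cell and dendritic cell sorts (1.80 ± 1.01). An unadjusted p under 0.05 was found for 6, 7 and 22 of all genes.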

How the data were processed

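Per the labels' protocols, cells sorted into lysis buffer were made into Smart-Seq2 libraries. Per the submitters' processing notes, STAR 2.4.0, HTSeq 0.6.1, DESeq2 and the build mm10 were used; no source used here says how strand or shared reads were treated. The authors deposited 1 table per sort of log2 values. The transform behind them is not named, and a variance-stabilising one was inferred from the values. Undoing it and dividing by the smallest step of each library gave whole reads for 100% of the values (tolerance 0.001). The CPM, per-kilobase levels and ratios to the T cell list come from these reads, which carry no identifiers and range from 11170 to 266392 per library.

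Symbols and exon lengths come from GENCODE M21 (46488 of 46983 identifiers matched) and promoters from RefSeq. Genes with a mean of at least 10 normalised reads per sort were tested on log2(normalised reads + 1), with adjustment over all genes tested (Benjamini-Hochberg, limma 3.58.1 under R 4.3.3) and a threshold of 0.05. The design assumed this log2 unit, and the fit was tested on simulated data. Python 3.11.15, pandas 2.3.3, scipy 1.17.1 and matplotlib 3.10.9 made tables and figures. The members, lists and tests were chosen with earlier results of these data known. Named genes are the 9 members, up to 4 genes per list and sort by unadjusted p, and the 3 genes most alike to each member. No reads of genes that overlap a member (Gm20489, Gm26551, A630014C17Rik, Gm16224, Mir6973a) were found; Gm33460, antisense to Eomes, was not matched.

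Labels give the same replicate numbers to both arms. In the CD8+ T cell sort libraries with the same number deviated together (correlations of deviations 0.36, 0.51 and 0.56). Fits with the number as a block are therefore given by gene for that sort. They are not for the CD4+ T cell (−0.14, 0.15, −0.20) or dendritic cell sort (0.03, −0.09, 0.14). These correlations come from the same libraries as the fits and do not show pairing. Both CD8+ T cell libraries numbered 3 were low in T cell RNA (3564 CPM with D18 and 2363 CPM with anti-PD-1). Alternatives were other scalings, filters and pseudocounts, limma-voom, the deposited values, the block, the batch term, a T cell covariate and libraries left out.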

Additional observations from a re-analysis of the deposited data

How the results depend on the processing

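Of 274 alternative values of the members' changes with D18, 35 reversed sign or fell to 0, 5 passed the threshold anew and 234 did neither, and 6 of 16 changes never reversed. The 5 were of Il2rb and Ltb in the CD4+ T cell sort, in fits that kept the anti-PD-1 pair lacking T cell RNA. Besides those given above, Il2rb passed there without both libraries numbered 3 (5.52, adjusted p = 0.0452, limma). Of 195 alternative values of the differences between sorts, 14 reversed. Counts of genes changed over all genes, 0 in each sort, became 22 with no filter, 1 on the deposited log2 values and 20 with the replicate block in the CD8+ T cell sort (0 to 2 with 1 library left out), 29 with no filter and 34 without both libraries numbered 3 in the CD4+ T cell sort (0 to 19 with 1 library left out), and 1 with quantile normalisation and 92 with limma-voom in the dendritic cell sort. The fits with no filter covered 14497 genes in the CD8+ T cell sort and 14441 in the CD4+ T cell sort. Without all libraries numbered 3, 1 gene differed between the CD4+ T cell and dendritic cell sorts. The replicate block changed no other call. The causes were not tested.

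In the CD8+ T cell sort, Il2rg turned to 0.39 with the batch term and 0.13 without the libraries numbered 3, Runx3 to −0.29 without these and Il2rb to −0.19 with the T cell covariate. With 1 library left out Il2rb ran from −0.40 to 0.65, Il2rg from −0.53 to 0.42, Runx3 from −0.19 to 0.72 and Ltb from −0.24 to 0.89. In the CD4+ T cell sort, Il7r turned to −0.65, Il2rg to −0.056 and Ltb to −0.016 with the batch term and equally without the pair lacking T cell RNA, and Il7r to −0.51 with the T cell covariate. In the dendritic cell sort, Il7r turned to −0.23 on CPM, −0.39 with a pseudocount of 0.1 and −0.16 with the batch term. Il2rb turned to −3.54 with limma-voom and −2.97 with the batch term, and was 0.00, with 0 reads, without the libraries numbered 3. Id2 turned to −0.049, −0.30 and −0.14 in these fits. With 1 library left out Il7r ran from −0.51 to 2.24, Il2rb from −1.58 to 1.76 and Id2 from −0.39 to 1.03. Of the differences, Il2rb between the CD8+ T cell and dendritic cell sorts turned to 0.057 without the libraries numbered 3, and Il7r between the CD4+ T cell and dendritic cell sorts to −0.25 with a pseudocount of 10. With 1 library left out, Il7r ran from −0.38 to 1.07 (CD8+ minus CD4+), from −0.81 to 1.95 (CD8+ minus dendritic) and from −1.25 to 1.5 (CD4+ minus dendritic), and between the CD8+ and dendritic cell sorts Il2rb ran from −1.65 to 1.70, Il2rg from −0.15 to 2.03 and Id2 from −0.35 to 1.07.

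Tbx21 and Eomes had too few reads to be tested in any sort, and 3 reads are 269 CPM in the shallowest library.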
